A study of Sus scrofa with 6 samples.

Results

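Histone variants and linker histones are the subject here: 9 genes were named (H1-3, H1-10, H2AX, H2AZ1, H2AZ2, MACROH2A1, MACROH2A2, H2AC20 and H2BC5), and those present by symbol in the authors' table of pig genes were taken. Of the 9, 7 were found among 20131 genes in all; H1-10 and H2AX matched no row and were not analysed here. The study sequenced rRNA-depleted, strand-specific libraries of 2 kinds of unmodified pig (Sus scrofa) cells. The 4 pgEpiSC libraries are of pre-gastrulation epiblast stem cells derived at embryonic day 10 from the embryonic epiblast, and the 2 pEF libraries are of embryonic fibroblasts from fetuses at embryonic day 30. The labels give no treatment, strain or sex, do not say which stem cell line each library is from, and call the libraries biological replicates; if they share a culture, p-values measure a technical spread. Levels are TPM, a share of all transcripts corrected for their length, so that genes can be compared.

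In the nucleosome DNA wraps around core histones (H2A, H2B, H3 and H4), and linker histones of the H1 family bind where the DNA enters and leaves. Replication-coupled histone genes such as H1-3, H2AC20 and H2BC5 are transcribed mainly in S phase, and their mRNAs mostly end in a stem-loop in place of a poly(A) tail, so rRNA-depleted libraries can hold them where poly(A)-selected ones lose many. Replacement variants are made throughout the cell cycle from polyadenylated mRNAs: H2A.Z, encoded by H2AZ1 and H2AZ2, marks promoters and enhancers, and macroH2A, encoded by MACROH2A1 and MACROH2A2, carries a large extra domain and is known for restraining the reactivation of silenced genes in differentiated cells.

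The members did not move together. H1-3, H2AZ1 and MACROH2A2 were higher in pgEpiSC and MACROH2A1 was lower, whereas H2AC20 and H2AZ2 did not pass the test on values as deposited and H2BC5 was near 0 in both groups. In each of the H2A.Z and macroH2A pairs the 2 paralogs thus differed in opposite directions in their group means. Of the 6 members tested, 3 were called higher and 1 lower, beside 18.0% and 9.43% of the 10424 genes tested (limma on log2(TPM + 1), pgEpiSC minus pEF, called below 0.05 after Benjamini-Hochberg adjustment over those genes). The groups of libraries did not overlap, with pgEpiSC higher, for 4 of the 6 (36.6% of tested genes) and, with pgEpiSC lower, for 1 (12.9%). After the libraries were scaled to a common median ratio, 3 of the 6 were called higher (28.6% of tested genes) and 2 lower (29.8%), and the groups did not overlap for the same counts, 3 higher (36.3%) and 2 lower (34.6%). The scaled shares of called genes are near 3 in 10, so 2 lower calls among 6 lie close to the background. All 6 were at 1.41 TPM or more in every library, so each passed the filter (1 TPM in 2 libraries) through both groups.

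The libraries differed in scale. Sums over the listed genes ran from 93556 to 320206 TPM, and the scaling factors that bring the libraries to a common median ratio ran from 0.587 to 2.15. Across tested genes the log2 fold had a median of 0.48 before and 0.06 after this scaling, and calls numbered 1874 higher and 983 lower as deposited, 2985 and 3109 after scaling. A member's share of its paralog pair and its rank within a library do not change with a common factor. Epiblast and fibroblast markers followed the labels. The 6 epiblast markers found summed to between 415 and 1801 TPM in pgEpiSC and to at most 0.660 TPM in pEF, and the 8 fibroblast markers to at most 6.98 TPM in pgEpiSC and at least 495 TPM in pEF. POU5F1, SOX2, THY1 and TWIST1 were among the markers not analysed here. Defining endothelial and blood genes reached at most 0.428 and 0.682 TPM in any library. Other early lineages were not at 0: the 5 trophectoderm markers summed to 1.44 to 10.8 TPM in pgEpiSC and 0.939 and 1.46 TPM in pEF, where 1 of them was at 0 in both libraries, and KRT7, the one tested, was called higher in pgEpiSC and reached 10.7 TPM. The 5 hypoblast and endoderm markers found summed to 6.38 to 12.9 TPM in pgEpiSC and 16.6 and 18.3 TPM in pEF. Of the 3 tested, FOXA2 (2.72 ± 1.01 against 0.00522 ± 0.00233 TPM) and APOA1 (6.97 ± 2.32 against 0.664 ± 0.298 TPM) were called higher in pgEpiSC, and PDGFRA, also a fibroblast marker, lower. KRT7, FOXA2 and APOA1 were below 1 TPM in both pEF libraries and passed the filter through pgEpiSC alone. PDGFRA passed it through pEF alone, so the direction of each of these calls was set by the filter. The part of cells of these other lineages in the results was not tested. In bulk libraries fewer cells of a type and less RNA per cell cannot be told apart.

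**Figure D1:**
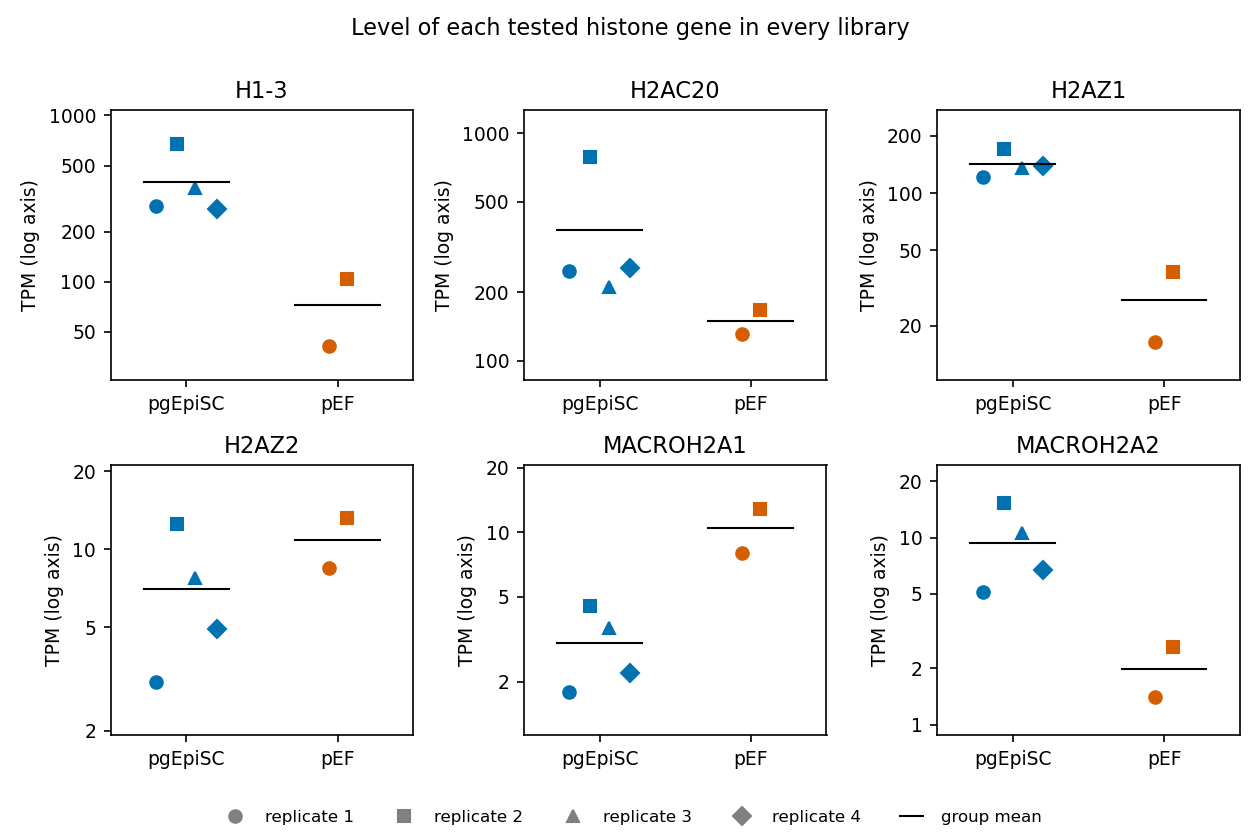
TPM (log axis) of the 6 tested members in the 4 pgEpiSC and 2 pEF libraries, 1 point a library; marker shapes are replicate numbers and bars are group means. For H1-3, H2AZ1 and MACROH2A2 every pgEpiSC library is above both pEF libraries, for MACROH2A1 every one is below, and H2AZ2 overlaps.

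H1-3, the linker histone among the members, was the most abundant of them in pgEpiSC on average. It was at 287, 671, 365 and 275 TPM in pgEpiSC libraries 1 to 4, against 40.9 and 103 TPM in pEF libraries 1 and 2. The lowest pgEpiSC library was above the higher pEF library, and pgEpiSC library 2 was the highest of all. The means were 399.5 ± 186 (SD, n = 4) and 72.2 ± 44.2 TPM (SD, n = 2), 5.53 times higher in pgEpiSC, with a log2 fold of 2.50 ± 0.45 (SE; limma adjusted p = 3.53e-05). This was 2.02 above the median of all genes. After scaling the fold was 1.91 ± 0.34 (adjusted p = 0.00195). Without pEF replicate 1 the fold as deposited was 1.84 and the call was lost (adjusted p = 0.0533). H1-3 copies resemble other H1 genes closely, so reads may be split between them; how the authors' counting treated such reads is not given in the sources used here.

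H2AC20, a replication-coupled H2A gene, was close to H1-3 in mean level in pgEpiSC and the most abundant member in pEF. It stood at 249, 790, 210 and 255 TPM in pgEpiSC, against 131 and 167 TPM in pEF. Every pgEpiSC library was above both pEF libraries, with library 2 far above the other pgEpiSC libraries. Its log2 fold of 1.11 ± 0.45 did not pass the test (limma adjusted p = 0.0592). It was called without pgEpiSC replicate 1 (1.23, adjusted p = 0.0426). After scaling the fold was 0.52 and the groups overlapped (141 to 367 scaled TPM in pgEpiSC, 172 and 223 in pEF). As a share of all listed TPM, H2AC20 held 0.158, 0.247, 0.101 and 0.153% in pgEpiSC and 0.140 and 0.115% in pEF. The ratio of H2AC20 to H1-3 was 0.867, 1.18, 0.577 and 0.926 in pgEpiSC and 3.20 and 1.61 in pEF, so these 2 replication-coupled genes did not keep 1 proportion across the groups. H2AC20 is one of several near-identical H2A genes, and its value is uncertain where reads fit more than one.

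H2BC5, a replication-coupled H2B gene, was below the filter. It was at 0.0126, 0, 0.128 and 0.118 TPM in pgEpiSC and was listed at 0 in pEF library 1 and at 0.855 TPM in pEF library 2. Its level was thus far under that of H2AC20, a replication-coupled gene of the H2A family, in all 6 libraries. It was the only H2B gene found by symbol.

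H2AZ1, which encodes the main H2A.Z protein, was the third most abundant member in both groups. It was at 122, 171, 136 and 139 TPM in pgEpiSC, against 16.5 and 38.2 TPM in pEF. The pgEpiSC values lay within 1.40 times of each other, the narrowest spread of the 6 tested members as deposited, and the lowest of them was above both pEF values. The mean was 5.19 times higher in pgEpiSC (142 ± 20.4 against 27.3 ± 15.3 TPM), with a log2 fold of 2.44 ± 0.46 (limma adjusted p = 7.03e-05). The fold was 1.87 ± 0.42 after scaling (adjusted p = 0.00620). The call as deposited held with each library left out in turn (folds of 1.86 to 3.02). Scaled values without pEF replicate 1 gave 1.63 and no call (adjusted p = 0.0655).

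H2AZ2, the second H2A.Z gene, encodes a protein that differs from the first at few residues. Its levels were 3.07, 12.5, 7.72 and 4.92 TPM in pgEpiSC, against 8.49 and 13.2 TPM in pEF. The groups overlapped because pgEpiSC library 2 was above pEF library 1. The log2 fold as deposited was -0.67 ± 0.56 and not called (limma adjusted p = 0.382). After median-ratio scaling the levels were 4.30 to 6.77 in pgEpiSC and 14.5 and 13.6 in pEF, the groups no longer overlapped, and the fold of -1.22 ± 0.20 was called (adjusted p = 0.00124). It was also called after rescaling to a common sum and after quantile normalization, at -1.42 and -1.06.

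Within the pair, H2AZ1 held 97.5, 93.2, 94.6 and 96.6% of H2A.Z transcripts in pgEpiSC and 66.0 and 74.3% in pEF. The share was higher in all 4 pgEpiSC libraries than in either pEF library. The mean shares were 95.5 ± 1.96 and 70.2 ± 5.87%, a difference of 25.3 points (exact two-sided permutation test over 15 splits, p = 0.0667, also 0.0667 after adjustment over 3 shares). That p is the smallest the design allows, so no such share could pass 0.05. Summed over both genes, H2A.Z transcripts were at 125 to 183 TPM in pgEpiSC and at most 51.4 TPM in pEF. After scaling the sums were 85.1 to 198 in pgEpiSC and 42.6 and 52.9 in pEF, a narrower gap between the nearest libraries. H2AZ1 exceeded H2AZ2 by 13.7 to 39.8 times in pgEpiSC and by 1.94 and 2.90 times in pEF.

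MACROH2A1, the widely expressed macroH2A gene, was lower in pgEpiSC. It was at 1.80, 4.52, 3.58 and 2.19 TPM in pgEpiSC, against 8.03 and 12.8 TPM in pEF. No pgEpiSC library reached the lower pEF library. The means were 3.03 ± 1.26 and 10.4 ± 3.40 TPM, with a log2 fold of -1.53 ± 0.56 (limma adjusted p = 0.0365), 2.01 below the median of all genes. After scaling the fold was -2.05 ± 0.16 (adjusted p = 3.40e-05). As deposited the call was lost without pgEpiSC replicate 1, 3 or 4 (-1.37, -1.61 and -1.43, adjusted p = 0.0777, 0.0809 and 0.0779) and without pEF replicate 1 or 2 (-1.84 and -1.22, adjusted p = 0.196 and 0.347). On scaled values it was called with each library left out.

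MACROH2A2, the second macroH2A gene, went the other way. It was at 5.13, 15.2, 10.6 and 6.67 TPM in pgEpiSC, against 1.41 and 2.59 TPM in pEF. Every pgEpiSC library was above both pEF libraries. The mean was 4.70 times higher in pgEpiSC (9.39 ± 4.50 against 2.00 ± 0.837 TPM), with a log2 fold of 1.72 ± 0.56 (limma adjusted p = 0.0188) and, after scaling, 1.28 ± 0.17 (adjusted p = 0.000440). As deposited the call was lost without pgEpiSC replicate 3 (1.64, adjusted p = 0.0747) and without pEF replicate 1 or 2 (1.43 and 2.01, adjusted p = 0.304 and 0.123). On scaled values it too was called with each library left out.

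Within the macroH2A pair MACROH2A1 was the minor form in pgEpiSC and the major form in pEF. It made up 26.0, 22.9, 25.3 and 24.8% of macroH2A transcripts in pgEpiSC and 85.1 and 83.2% in pEF. The means of 24.8 ± 1.33 and 84.2 ± 1.32% differed by -59.4 points (exact two-sided permutation test, p = 0.0667, the smallest possible; 0.0667 after adjustment). With any single library left out the difference stayed between -60.3 and -58.5 points. MACROH2A2 was 2.84 to 3.36 times MACROH2A1 in pgEpiSC and 0.175 and 0.202 times it in pEF. The 2 genes summed to 6.93, 19.7, 14.1 and 8.87 TPM in pgEpiSC and to 9.44 and 15.4 TPM in pEF, so the summed level overlapped between the groups where its make-up did not. After scaling the sums were 9.17 to 12.2 in pgEpiSC and 16.1 and 15.9 in pEF, lower in pgEpiSC.

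**Figure D2:**
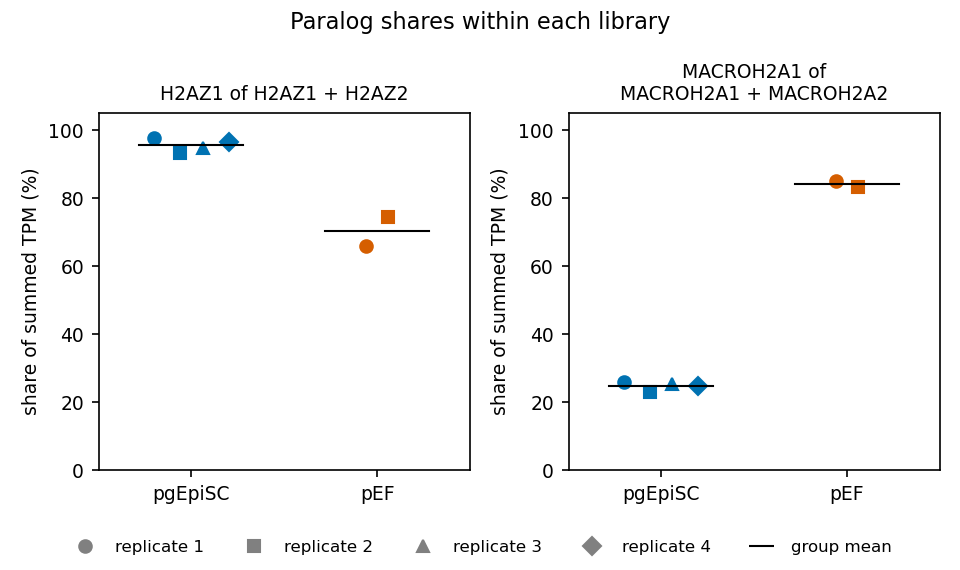
Share (%) of the first gene in the summed TPM of each pair, 1 point a library, with bars for group means. H2AZ1 rises from 66.0 and 74.3% in pEF to over 93% in each pgEpiSC library, and MACROH2A1 falls from over 83% to at most 26.0%.

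Ranking each member among the 20131 genes of its own library gave the following positions. MACROH2A1 stood at percentiles 69.4 to 75.5 in pgEpiSC and 91.8 and 91.9 in pEF. MACROH2A2 stood at 86.6 to 88.7 in pgEpiSC and 69.01 and 70.4 in pEF, and so changed places with its paralog. H2AZ2 stood at 80.5 to 85.8 in pgEpiSC and at 92.3 and 92.2 in pEF, apart on this measure although its TPM overlapped. H2AZ1 was at 98.9 to 99.2 against 96.0 and 97.5, H1-3 at 99.5 to 99.7 against 98.5 and 99.1, and H2AC20 at 99.3 or above in all 6 libraries.

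**Figure D3:**
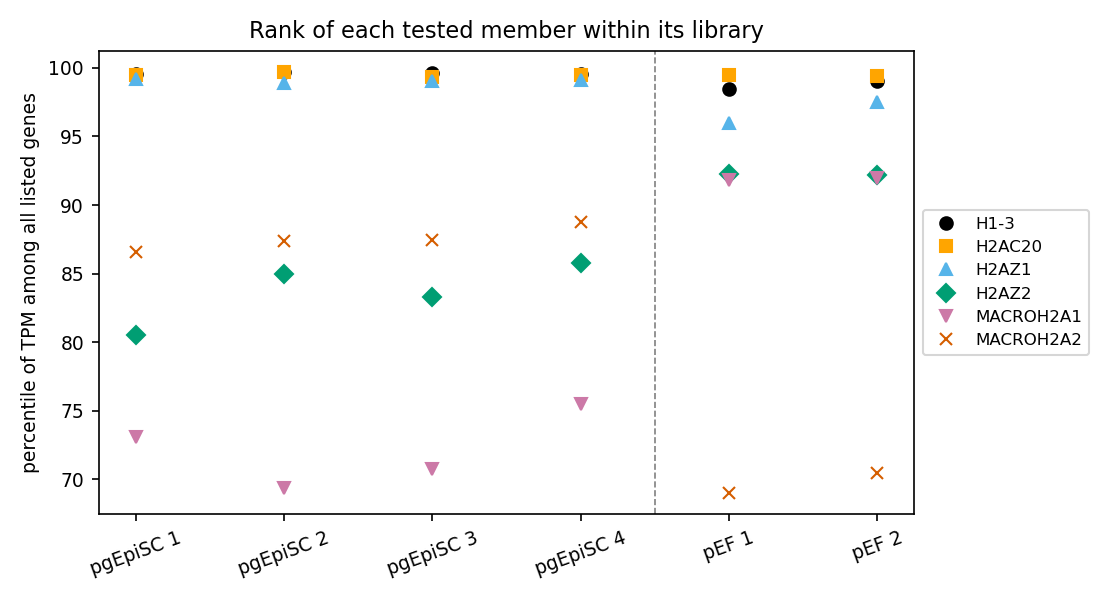
Percentile of each tested member's TPM among the 20131 listed genes of the same library, for 4 pgEpiSC and 2 pEF libraries (dashed line between groups). MACROH2A1 and MACROH2A2 change order between the groups, while H1-3, H2AC20 and H2AZ1 stay above percentile 96.

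By mean TPM the order in pgEpiSC was H1-3, H2AC20, H2AZ1, MACROH2A2, H2AZ2, MACROH2A1 and H2BC5. H1-3 and H2AC20 were not told apart, as H1-3 was above H2AC20 in 3 of 4 libraries. MACROH2A2 was above H2AZ2 and H2AZ2 above MACROH2A1 in 4 of 4 libraries, but the ranges over libraries overlapped. In pEF the order was H2AC20, H1-3, H2AZ1, H2AZ2, MACROH2A1, MACROH2A2 and H2BC5, and only H2AZ2 and MACROH2A1 overlapped in range among neighbours. Of all listed TPM the members found held 0.426 ± 0.0700% in pgEpiSC, against 0.226 ± 0.00826% in pEF (exact two-sided permutation test, p = 0.0667, the smallest possible; 0.0667 after adjustment). H1-3 and H2AC20 together made up 77.6 to 87.8% of that sum in pgEpiSC and 83.3 and 80.0% in pEF, so these 2 genes held most of its level. Of all listed TPM, H1-3 held 0.183 ± 0.0191% in pgEpiSC against 0.0574 ± 0.0193% in pEF, without overlap. For H2AC20 the shares were 0.165 ± 0.0606 and 0.127 ± 0.0179%, and the groups overlapped.

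Another 6 histone genes found by symbol were taken, and 4 of them were tested. Of these, 3 were called higher and 0 lower, beside 18.0% and 9.43% of all tested genes. Their median log2 fold was 1.49 beside 0.48 over all genes. After scaling 2 were called higher and 0 lower, beside 28.6% and 29.8% of all tested genes. H2AC11, a second replication-coupled H2A gene, was at 51.3, 48.7, 86.6 and 81.2 TPM in pgEpiSC and 0.894 and 4.14 TPM in pEF, a log2 fold of 4.40 ± 0.51 (limma adjusted p = 8.43e-09). Its fold was larger than that of any member, but like H2AC20 its value is uncertain where reads fit several H2A genes. CENPA, the histone H3 variant of centromeres, was at 5.28 ± 3.27 against 0.664 ± 0.659 TPM (1.84 ± 0.57, adjusted p = 0.0141). H3-3A, one of the genes of the replacement histone H3.3, was the most abundant of the 6 at 245 ± 94.3 against 108 ± 33.6 TPM (1.14 ± 0.43, adjusted p = 0.0447), a call lost after scaling (0.55, adjusted p = 0.183). CENPA and H3-3A lost their calls without pEF replicate 1 (1.42 and 0.82) or pEF replicate 2 (2.25 and 1.46), and H3-3A also without pgEpiSC replicate 3 or 4 (1.14 and 1.18). H2AJ, a replacement H2A gene, was at 80.5 ± 47.6 against 39.2 ± 4.05 TPM and was not called (adjusted p = 0.183). H1-7 and H1-8, germ-line linker histones, were at most 0.0906 TPM in any library.

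**Figure D4:**
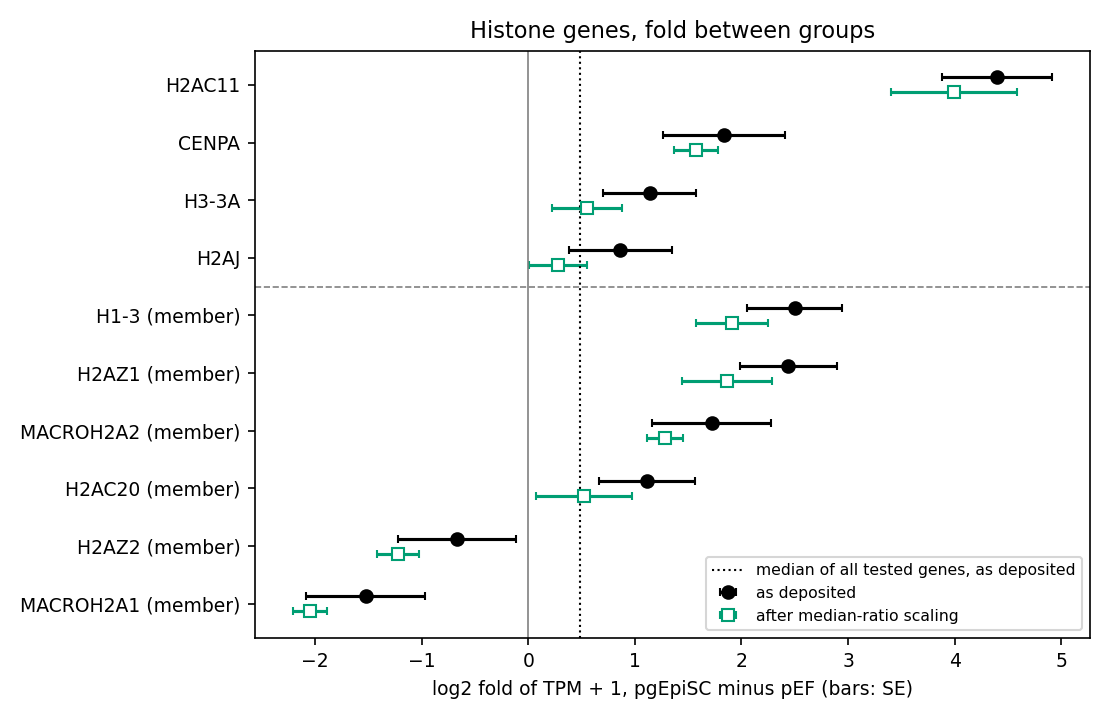
Log2 fold of TPM + 1 (pgEpiSC minus pEF, bars SE) for the 6 tested members below the dashed line and 4 other histone genes above it, as deposited (black) and after median-ratio scaling (green); the dotted line is the median of all tested genes as deposited, 0.48. MACROH2A1 and H2AZ2 lie left of 0 on both scales.

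Genes that handle histones were taken from lists of known roles. Beside each list stand the same shares of all tested genes as above: 18.0% called higher and 9.43% lower as deposited, 28.6% and 29.8% after scaling. Of 24 tested histone chaperones, 13 were called higher and 0 lower, with a median log2 fold of 1.41 (0.48 over all genes), and 16 and 1 after scaling. Of the 13, 5 (ASF1B, CHAF1B, HJURP, MMS22L and TONSL) were below 1 TPM in both pEF libraries, so they passed the filter through pgEpiSC alone and could only be called higher. NASP, which holds soluble H3-H4 and also binds linker histones, was at 122 ± 64.7 against 3.21 ± 1.88 TPM (4.81 ± 0.50, limma adjusted p = 5.12e-10). NPM1, an abundant nucleolar chaperone, was at 406 ± 64.4 against 45.6 ± 14.2 TPM. SUPT16H, a subunit of the FACT complex, had a fold of 2.18 ± 0.50, and NAP1L1, an H2A-H2B chaperone and the most abundant of the list in pEF, a fold of 1.78 ± 0.45. Calls of NASP and NPM1 held with each library left out, whereas those of SUPT16H and NAP1L1 were lost without pEF replicate 1 (1.81 and 1.33, adjusted p = 0.0857 and 0.166). The list had 2 members called without pEF replicate 1, 5 without pEF replicate 2 and 7 without pgEpiSC replicate 3.

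H2A.Z is placed and removed by remodelling complexes. Of 29 tested genes of the SRCAP, TIP60 and INO80 complexes 3 were called higher and 0 lower, which is below the share of all genes called higher, with a median of 0.59 near that of all genes. After scaling 6 were higher and 2 lower. The 3 called as deposited were RUVBL1, an AAA+ ATPase shared by these complexes (42.5 ± 27.5 against 9.95 ± 4.31 TPM, 1.85 ± 0.53, limma adjusted p = 0.00710), ACTL6A, an actin-related subunit (1.51 ± 0.54, adjusted p = 0.0325), and UCHL5, a deubiquitinase (1.37 ± 0.51, adjusted p = 0.0416). SRCAP itself, the ATPase that loads H2A.Z, was at 1.06 against 0.368 TPM and not called (adjusted p = 0.316), and MORF4L1, the most abundant of the list, was at 101 ± 29.2 against 73.8 ± 23.9 TPM. None of the 3 was called after either pEF library was removed, although the folds stayed above 0: RUVBL1, ACTL6A and UCHL5 were at 1.44, 1.36 and 0.98 with pEF replicate 1 removed, and at 2.27, 1.66 and 1.75 with pEF replicate 2 removed. ACTL6A and UCHL5 also lost theirs without pgEpiSC replicate 3 (1.47 and 1.33), and UCHL5 without pgEpiSC replicate 4 (1.48).

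Of 8 tested partners of macroH2A, 2 were called higher and 1 lower, with a median of 0.63. After scaling 3 were higher and 3 lower, with a median of 0.19 beside 0.06 over all genes; APLF, a histone chaperone of DNA repair, and SPOP, a ubiquitin ligase adaptor, were then also called lower. PARP1, a poly(ADP-ribose) polymerase bound by macroH2A, was at 29.1 ± 21.9 against 2.59 ± 1.57 TPM (2.87 ± 0.57, limma adjusted p = 0.000146), and LMNB1, a nuclear lamin, at 31.5 ± 20.8 against 3.32 ± 3.10 TPM (2.92 ± 0.56). PARP9, a macrodomain protein of the interferon response, was lower, at 0.0555 ± 0.0208 against 3.26 ± 2.62 TPM (-1.86 ± 0.37). PARP9 passed the filter through pEF alone, so its direction was set by the filter. The chromatin remodeller SMARCA5, the most abundant of the list, was at 35.9 ± 17.9 against 16.4 ± 3.45 TPM and not called. Without pEF replicate 1 PARP1 (2.41, adjusted p = 0.0883) and LMNB1 (2.12, adjusted p = 0.106) lost their calls.

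HMG proteins, like H1, bind chromatin. Of 6 tested HMG genes, 4 were called higher and 0 lower, with a median of 2.20: HMGA1 at 97.3 ± 85.5 against 2.77 ± 0.282 TPM (4.35 ± 0.54, limma adjusted p = 3.93e-08), HMGN2 at 514 ± 135 against 87.7 ± 56.4 TPM (2.67 ± 0.43), HMGB2 (2.45 ± 0.50) and HMGN1. After scaling 4 were higher and 1, HMGN4, was lower (-1.20 ± 0.18, limma adjusted p = 0.000730). As deposited HMGN4 was at 2.39 ± 0.757 against 4.64 ± 1.44 TPM, without overlap, and was not called. HMGN2 was more abundant than H1-3 on average in both groups. Without pEF replicate 1 HMGB2 (1.73, adjusted p = 0.0867) and HMGN1 (1.46, adjusted p = 0.110) lost their calls, which left 2 of the list called.

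Replication-coupled histone mRNA follows S phase, and genes of S phase and proliferation were higher in pgEpiSC beside H1-3. Of 14 tested, 11 were called higher and 0 lower, with a median of 2.28, and 12 and 0 after scaling. Of the 11, 2 (CDC6 and CDT1) were below 1 TPM in both pEF libraries and passed the filter through pgEpiSC alone. The list summed to 236 to 559 TPM in pgEpiSC and 37.8 and 81.9 TPM in pEF. CCNB1, a mitotic cyclin, was at 41.5 ± 13.4 against 3.20 ± 2.91 TPM (3.49 ± 0.53, limma adjusted p = 2.11e-06), TOP2A, a topoisomerase, had a fold of 3.19 ± 0.52, and the replicative helicase genes MCM2 and MCM6 had folds of 2.88 ± 0.58 and 2.68 ± 0.49. TYMS, a thymidylate synthase and the most abundant of the list in pEF, was at 27.7 ± 18.0 against 13.7 ± 4.22 TPM and not called. MCM2 lost its call without pEF replicate 1 (2.45, adjusted p = 0.0923), and the list then had 4 called, as against 8 without pEF replicate 2. Their part in the results for H1-3 and H2AC20 was not tested.

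Genes that transcribe histone genes and cut their mRNAs formed a further list: of 17 tested, 3 were called higher and 0 lower, close to the share of all genes called higher, with a median of 0.95. After scaling 8 were higher and 2 lower. CCNE1, the cyclin that with CDK2 switches on histone transcription, was at 6.63 ± 4.29 against 0.797 ± 0.222 TPM (1.94 ± 0.58, limma adjusted p = 0.0101), and was below 1 TPM in both pEF libraries, so it passed the filter through pgEpiSC alone; SYMPK, a scaffold of the cleavage complex, and SRRT, which couples the cap-binding complex to processing, had folds of 1.52 ± 0.58 and 1.51 ± 0.55. CDK2 was at 6.09 ± 2.996 against 9.14 ± 3.75 TPM and not called as deposited, but after scaling its groups did not overlap and it was called lower (-1.09 ± 0.16, adjusted p = 0.000653). Of 15 tested genes listed for H2AX phosphorylation, its readers or its removal, 3 were higher and 0 lower, again close to that share. Their median was 0.96, and after scaling 7 were higher and 1 lower (BAZ1B). The 3 called as deposited were the kinase ATR (1.81 ± 0.57), BRCA1 (1.75 ± 0.56) and the nuclease MRE11 (1.62 ± 0.56). PPP4C, a phosphatase, was the most abundant of that list at 28.3 ± 19.6 against 20.8 ± 8.07 TPM and was not called. None of the 6 was called after either pEF library was removed, with folds of 1.29 to 1.81 without replicate 1 and 1.72 to 2.06 without replicate 2. Without pgEpiSC replicate 3 SYMPK, SRRT, ATR, BRCA1 and MRE11 were not called (1.41, 1.45, 1.61, 1.64 and 1.55), nor were SYMPK and SRRT without pgEpiSC replicate 2 (1.13 and 1.12).

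**Figure D5:**
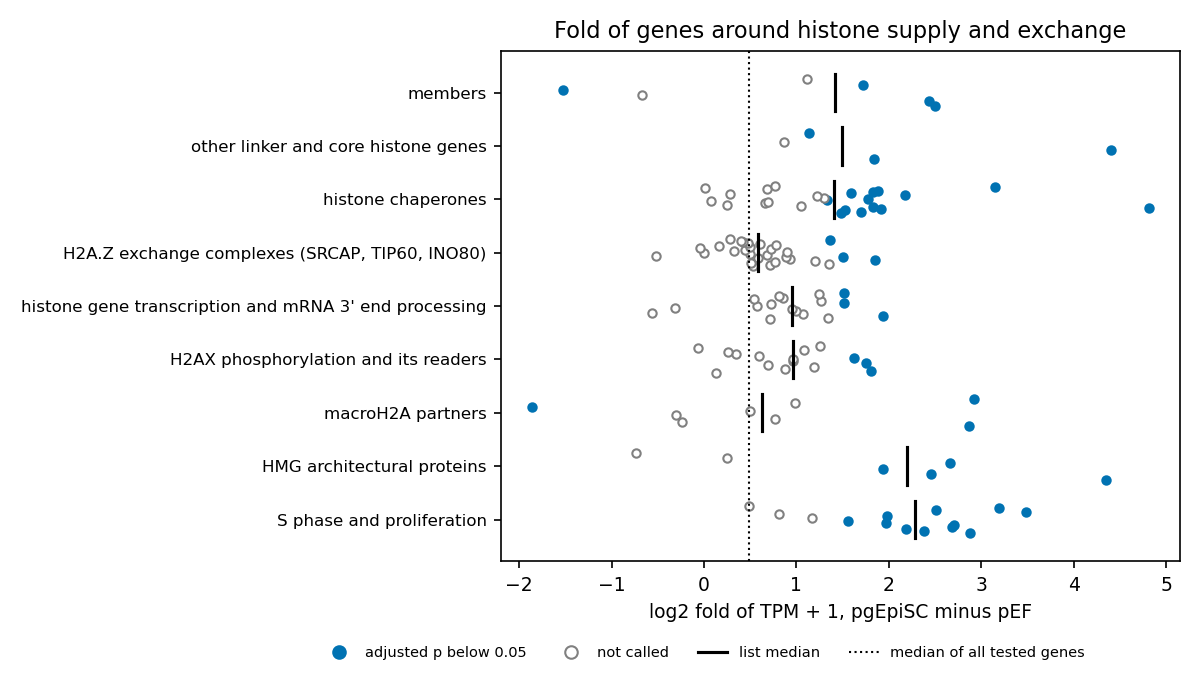
Log2 fold of TPM + 1 (pgEpiSC minus pEF) of each tested gene of the members and 8 lists, filled where the limma adjusted p is below 0.05, with list medians as bars and the median of all tested genes (0.48) dotted. Members spread to both sides, and the S phase list has 11 of 14 filled points to the right.

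The genes whose pattern over the 6 libraries was most like that of a member were named for the tested members with the highest and the lowest mean TPM over all 6 libraries, H2AC20 (300.3 TPM) and MACROH2A1 (5.50 TPM), by Pearson's r of log2(TPM + 1). Within a single group the order differed: H1-3 was first in pgEpiSC, and MACROH2A2 was the lowest tested member in pEF. For H2AC20 they were UBL5, NAA20 and TFB2M, with r of 0.965, 0.961 and 0.958. For MACROH2A1 they were CDKN2D, ATP6V1H and PRSS35, with r of 0.998 each. Over 0.9 were 291 of 8916 genes for H2AC20 and 1147 for MACROH2A1. The libraries share scale and group, which raises such values in many genes, and they are given as a description.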

How the data were processed

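The authors deposited TPM for 20132 Ensembl genes in 6 libraries, per the file headers. The submitters' processing notes name STAR 2.6.0c and kallisto 0.44.0; which step each did, and the build, is not given in the sources used here, so no coordinates are printed. TPM keeps no read depth, so the depth of each library is unknown. Symbols came from the gene name table (14062 of 20132 rows, 69.8%); rows of 1 symbol were summed. Genes at 1 TPM or more in at least 2 libraries (10424) were fitted in limma 3.58.1 (R 4.3.3) on log2(TPM + 1), a scale that understates the change of low genes, by group, with trended empirical Bayes variances and p-values adjusted (Benjamini-Hochberg) over those genes. The script was tested on simulated data. Shares were compared by exact two-sided permutation. Python 3.11.15, pandas 2.3.3, numpy 2.4.6 and matplotlib 3.10.9 made tables and figures.

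The members and lists were chosen with earlier results of these data known. All members are named; of each list, up to 3 called genes in each direction by fold and the most abundant in each group; of a list with fewer than 5 tested genes, all of those. SRCAP, HMGN1, HMGN4, H1-7, H1-8, APLF, SPOP, BAZ1B, CDC6 and CDT1 were named after their values were seen. So were the 5 chaperones below the filter in pEF and the hypoblast and trophectoderm genes. H1-10 and H2AX, and with them the planned share of H1-3 and H1-10, were not analysed here, nor were sequences; 1 further histone gene, left out of the list of other histone genes and its counts, is not reported here. Alternatives were pseudocounts of 0.1 and 5, no filter, a mean TPM of at least 5, 4 rescalings, variance without trend or robust, a replicate block, and each library left out.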

Additional observations from a re-analysis of the deposited data

Results flagged for a closer look

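In 3 of 17 sets of 4 pgEpiSC values (members and shares) 1 library stood apart by the gap to its nearest neighbour over the range of the group (beyond Dixon's 95% critical value, which chance exceeds in about 1 in 20 sets). H2AC20 was at 790 TPM in pgEpiSC library 2, against 210 to 255 TPM in the other 3. After median-ratio scaling H2AC20 stood apart on the low side instead, at 141 in pgEpiSC library 3 against 348 to 367. Scaled MACROH2A2 was at 9.17 in pgEpiSC library 4, against 7.07 to 7.18 in the others, all of which were above both pEF libraries.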

How the results depend on the processing

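TPM without counts, and 2 pEF libraries, limit all tests here; with 1 pEF library left, its spread is taken from the pgEpiSC group. No member's fold and no share changed sign under any alternative run. Leaving out each library gave ranges of 252 to 2270 genes higher, 555 to 1367 lower, and log2 folds of 1.84 to 3.16 for H1-3, -1.84 to -1.22 for MACROH2A1, 1.43 to 2.01 for MACROH2A2 and 0.68 to 1.31 for H2AC20; the causes were not tested. With a pseudocount of 5, MACROH2A1 (-0.94, adjusted p = 0.0511) and MACROH2A2 (0.99, 0.0580) were not called, nor with no filter (-1.53 and 1.72, adjusted p = 0.0755 and 0.0784), where more genes are tested. H2AC20 was called with a pseudocount of 0.1 (1.12), a robust variance (1.11), and scaling without pgEpiSC replicate 3 (0.86). Genes higher numbered 967 with a pseudocount of 5, 787 with no filter and 1185 at a mean TPM of at least 5 (368 lower).

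Scaling made H2AZ2 lower and called: -1.22 by median ratio, -1.42 at a common sum and -1.06 by quantiles. It was also called at -1.18 by median ratio on genes with a symbol other than ribosomal protein genes. By median ratio on all tested genes it was called at -1.13, -1.25, -1.20 and -1.31 without pgEpiSC replicates 1 to 4. Without pEF replicates 1 and 2 the folds were -1.18 and -1.26. Without pEF replicate 1 scaled H2AZ1 was not called (1.63). Genes higher and lower were 2985 and 3109 by median ratio and 3374 and 2779 by quantiles. They were 3091 and 3021 on genes with a symbol other than ribosomal protein genes. At a common sum 2962 were lower. By median ratio 3133 and 2814 were higher without pgEpiSC replicates 2 and 3, and 2829, 3208, 2957, 2905, 2597 and 2562 lower without pgEpiSC replicates 1 to 4 and pEF replicates 1 and 2.

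The groups share the replicate numbers 1 and 2, and nothing in the labels pairs them. Deviations of same-numbered libraries correlated at 0.0982 and 0.172 over genes, while pEF library 1 correlated with pgEpiSC library 4 at 0.142. The deviations of the 2 pEF libraries from their mean are exact opposites, so these values are not independent and cannot settle whether the numbers pair. A fit with the number as a replicate block takes the group difference from the libraries numbered 1 and 2 alone, as the other pgEpiSC numbers have no pEF library. Among them is pgEpiSC library 2, which stood apart for H2AC20 (790 TPM). In that fit 2204 genes were higher and 893 lower and H2AC20 was called (1.58, limma adjusted p = 0.000102). No other member's call changed. With block and median-ratio scaling 2580 genes were lower and H2AZ2 was called (-1.32).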

Other observations

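The members differed in how far they followed the scale of the pgEpiSC libraries, whose factors were 0.714, 2.15, 1.49 and 0.727. As deposited, the highest pgEpiSC library was 2.97 times the lowest for MACROH2A2, 2.51 times for MACROH2A1 and 4.07 times for H2AZ2. After median-ratio scaling these spreads were 1.30, 1.44 and 1.58 times. H2AZ1 did the opposite, with 1.40 times as deposited and 2.41 times after scaling, and H2AC11 likewise, with 1.78 and 4.93 times. For H1-3 the spread was 2.44 times as deposited and 1.64 times after scaling, and for H2AC20 3.76 and 2.61 times. Scaling by a common factor thus narrowed the pgEpiSC replicates of every tested member but H2AZ1, whose replicates it widened.

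H2AC20 and H2AC11, both replication-coupled H2A genes, differed between the groups in their shares. Reads that fit both genes make these shares uncertain. H2AC20 held 82.9, 94.2, 70.8 and 75.8% of their summed TPM in pgEpiSC and 99.3 and 97.6% in pEF, with no overlap; the pair was chosen after its values were seen. The ratio of H2AZ1 to MACROH2A1 ran from 37.7 to 67.7 in pgEpiSC and was 2.05 and 2.97 in pEF.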
